A study of Danio rerio with 24 samples.

Results

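Zebrafish embryos exposed to actinomycin D were compared with untreated embryos at 3 hours post fertilization (hpf). The libraries were chosen by the treatment and time in their titles, which gave 4 actinomycin D and 4 untreated libraries among 24 in the series. All embryos were wild type of the TLAB strain, and whole embryos were the source of the RNA. The actinomycin D dose was 10 µg/ml, and the untreated embryos were kept in parallel. The treatment protocol describes inhibitors in the embryo medium from laying onwards, while the design text of the series calls the actinomycin embryos injected, so the route is unsettled. The series also holds embryos in oligomycin, an inhibitor of the mitochondrial ATP synthase, at 1 µM, and all treatments again at 4 hpf, with 4 libraries in each of 6 groups. The labels do not say whether the replicates were separate clutches or pools, so p-values measure the spread between libraries, which may be technical.

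The early zebrafish embryo divides on RNA and protein that the mother laid down in the egg. Its own genome is switched on in waves during the blastula stage, and the earliest transcripts include those of patterning transcription factors, secreted signals and the microRNA family miR-430, which clears maternal mRNA. Actinomycin D intercalates into DNA and blocks transcription, so it stops new RNA from being made. The comparison at 3 hpf therefore asks which transcripts of the first wave were already present at that time.

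At 3 hpf 46 genes were lower and 2 were higher in actinomycin D than in untreated embryos, among 11238 genes tested. The test was the quasi-likelihood test of edgeR, with p-values adjusted by Benjamini-Hochberg over all genes tested. The lower genes were 0.409% of all genes tested and the higher genes 0.0178%. They included 16 transcription factors, among them irx7, vox, grhl3, mxtx2 and SOX3, 6 secreted antagonists or receptors, among them lft1, lft2 and dkk1b, and 3 precursors of miR-430. Another 3 were immediate-early response genes, 2 were copies of GADD45B, 4 act in signalling or on the cytoskeleton, 6 had another symbol and 6 had none. For the 15 lower genes with more than 3 reads in all in actinomycin D, fitted log2 fold changes lay between -6.74 and -2.86, while the median over all genes tested was -0.004. A gene is called here at an adjusted p under 0.05; the largest adjusted p among the called genes was 0.045 and the smallest among the others was 0.0551. At an unadjusted p under 0.05 the fit held 302 genes lower and 39 higher. This fit did not pair libraries. With sets of libraries of neighbouring title numbers as a block, 27 genes were called lower, 26 of them among the 46.

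The plot of levels by gene shows reads per library for each lower gene. For 45 of the 46 the highest actinomycin D library lay below the lowest untreated library, and tsc22d3 was the exception. Over all genes tested this held for 2.13%, or 239 genes. The calls were made on these same libraries, so the count describes the called genes and is no further support for the calls. No read was counted in any actinomycin D library for 17 of the 46 genes, 1 to 3 reads in all for 14, and more for 15. Counts were too low for a fold to be read from the fit where a group had almost no reads. A gene with 0 reads is therefore given as at least so many-fold lower, against a floor of 3 counts summed over the 4 actinomycin D libraries. A gene with 1 to 3 reads in all is given as a ratio of pooled rates with a 95% interval, and both cover counting error only. These are levels in whole embryos, where fewer cells with a transcript and less RNA per cell cannot be told apart.

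**Figure D1:**
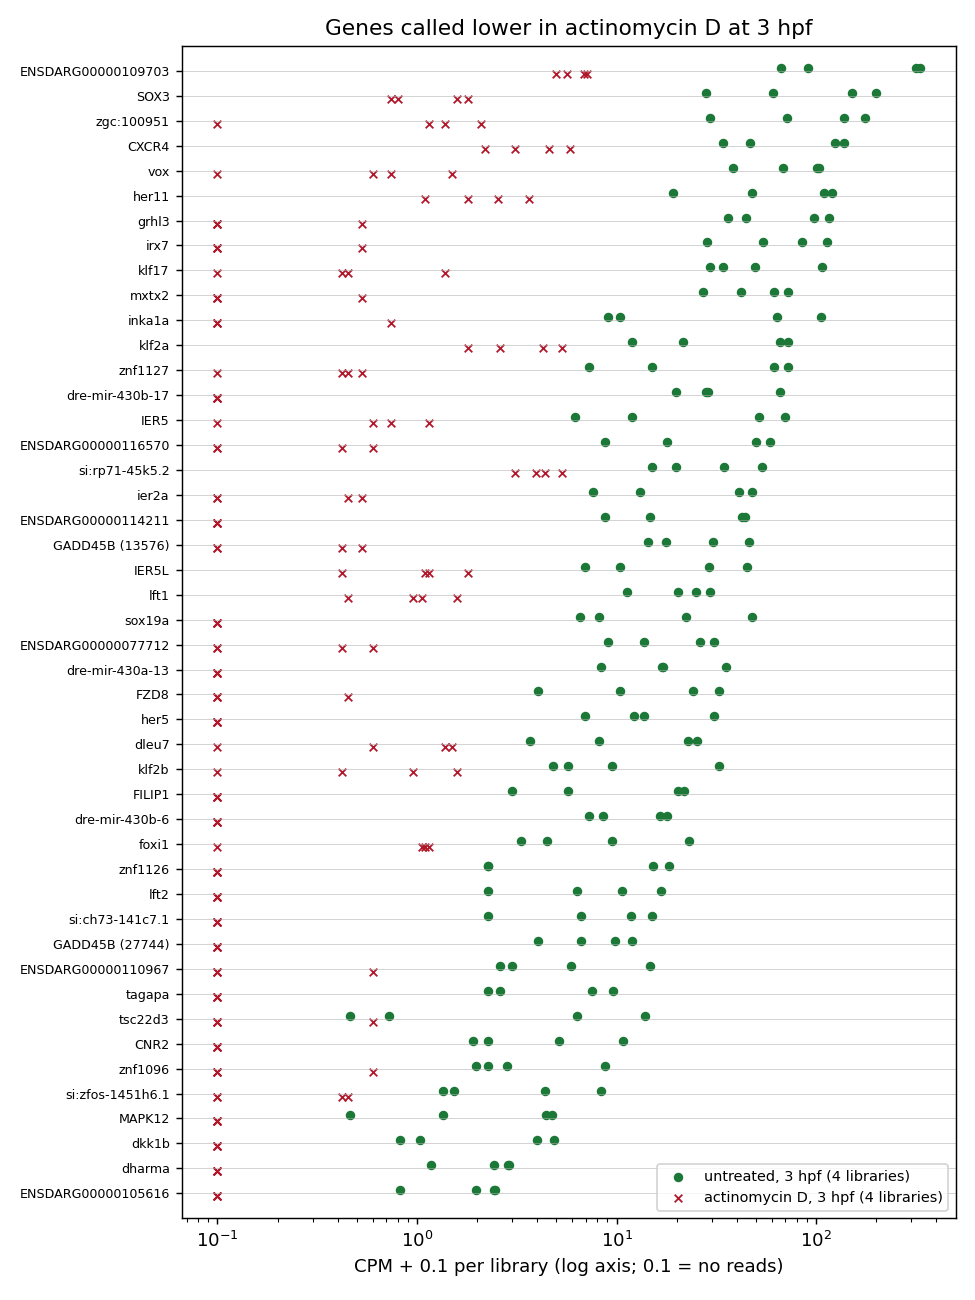
Levels of the 46 genes called lower in actinomycin D at 3 hpf, as CPM (reads scaled to equal library size after TMM normalization) plus 0.1 on a log axis, with 1 green point for each of 4 untreated and 1 red cross for each of 4 actinomycin D libraries. A cross at 0.1 stands for no reads, and for tsc22d3 alone a cross lies among the green points.

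Transcription factors made up the largest group with a known role. irx7 (ENSDARG00000002601), an Iroquois homeobox factor, had 219, 287, 79 and 173 reads in untreated replicates 1 to 4 and 0, 1, 0 and 0 in actinomycin D. Its pooled rate was 706-fold lower (95% interval 126 to 27920), with an edgeR adjusted p of 0.000299. vox (ENSDARG00000099761), a homeobox repressor that restricts the dorsal organizer, had 260, 260, 106 and 219 reads against 1, 0, 4 and 2. Its log2 fold change was -6.74 ± 0.852 (SE), with an edgeR adjusted p of 0.000457. The groups were far apart for both genes, and untreated replicate 3 was the lowest of its group each time.

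Factors linked to the enveloping layer or the yolk syncytial layer were also lower. grhl3 (ENSDARG00000078552), a Grainyhead-like factor of the enveloping layer, had 251, 294, 100 and 143 untreated reads against 0, 1, 0 and 0, a 734-fold lower rate (131 to 29020; edgeR adjusted p 0.000457). klf17 (ENSDARG00000038792), a Krüppel-like factor, had 126, 272, 81 and 110 reads against 0, 3, 1 and 1 and fell by 6.68 in log2 units (SE 0.940; adjusted p by edgeR 0.000891). mxtx2 (ENSDARG00000015906), a homeobox factor needed for the yolk syncytial layer, had 185, 156, 75 and 134 reads against 0, 1, 0 and 0. Its rate was 512-fold lower (91.5 to 20270; edgeR adjusted p 0.000457). In each of these genes every untreated library held at least 75 reads and no actinomycin D library more than 3.

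SOX3 (ENSDARG00000053569), a SoxB1 factor of early ectoderm and neural tissue, had 388, 503, 78 and 196 reads against 3, 4, 2 and 2 and fell by 6.61 (log2; SE 1.19, edgeR adjusted p 0.0116). Its relative sox19a (ENSDARG00000010770) had 57, 121, 18 and 26 reads against 0 in all 4 actinomycin D libraries, at least 68.9-fold lower (edgeR adjusted p 0.045). dharma (ENSDARG00000040955), a homeobox gene that induces the dorsal organizer, had 6, 7, 3 and 9 reads against 0 in all 4 (at least 7.76-fold lower, edgeR adjusted p 0.0104). Groups were separate for all 3 genes. The call of SOX3 was lost in 4 and that of dharma in 1 of 8 refits, each without 1 library at 3 hpf, and that of sox19a in 6. The call of sox19a was also lost when the set of libraries with neighbouring title numbers entered the fit as a block (edgeR adjusted p 0.134).

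Some factors kept a measurable remainder. klf2a (ENSDARG00000042667), a Krüppel-like factor, had 185, 167, 33 and 69 reads in untreated and 5, 4, 15 and 13 in actinomycin D embryos, and fell by 3.57 (log2; SE 0.649, edgeR adjusted p 0.0116). The groups were closer than for the genes above: untreated replicate 3 held 33 reads and actinomycin D replicate 3 held 15. The other Krüppel-like gene klf2b, the forkhead gene foxi1 and the hairy-related repressors her5 and her11 were lower as well. her11 (ENSDARG00000002707) had 310, 277, 53 and 153 reads against 2, 4, 7 and 11, while her5 (ENSDARG00000008796) had 35, 78, 19 and 39 against 0 in all 4. Both lie next to each other, with 0 genes between them in the RefSeq order of assembly GRCz12tu. Overlap of their transcripts was not examined. The call of klf2a was lost in 4 of the 8 refits, that of her5 in 5 and those of her11, klf2b and foxi1 in 6. With the library set as a block the edgeR adjusted p was 0.0775 for klf2a, 0.106 for klf2b and 0.0759 for foxi1, and the calls of her5 and her11 were kept.

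Numbered zinc finger genes, a large family in zebrafish, gave 3 of these 16 factors. znf1127 (ENSDARG00000093220) had 157, 183, 20 and 48 reads against 0, 1, 1 and 1, a 127-fold lower rate (43.0 to 617; edgeR adjusted p 0.0116), and znf1126 and znf1096 were also lower. The call of znf1127 was lost in 5 of the 8 refits and those of znf1126 and znf1096 in 6, and that of znf1126 also with the block (edgeR adjusted p 0.185). Of 123 tested members of this family 3 were called, against 0.409% of all genes, 11 had all actinomycin D libraries below all untreated ones, against 2.13%, and the family's median log2 fold change was -0.04. Its summed level was 7162 to 7507 CPM in untreated and 7194 to 7436 CPM in actinomycin D libraries. Near-identical copies exist in this family, so reads of single members are uncertain.

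Secreted antagonists and receptors formed the next group. lft1 (ENSDARG00000019920) and lft2 (ENSDARG00000044059) encode Lefty proteins, which antagonize the signal Nodal. lft1 had 75, 63, 31 and 65 untreated reads against 3, 2, 1 and 3, and fell by 4.53 in log2 units (SE 0.758; adjusted p by edgeR 0.00454). lft2 had 27, 42, 6 and 20 reads against 0 in all 4, at least 29.5-fold lower (edgeR adjusted p 0.00615). Both kept their call in all 8 of these refits. dkk1b (ENSDARG00000045219), which encodes an inhibitor of Wnt signalling, had 10, 12, 2 and 3 reads against 0 in all 4, at least 8.38-fold lower (edgeR adjusted p 0.0355). FZD8, a Frizzled receptor for Wnt, had 62, 82, 11 and 33 reads against 0, 0, 1 and 0. The chemokine receptor gene CXCR4 had 353, 315, 95 and 150 reads against 9, 7, 6 and 18, and the cannabinoid receptor gene CNR2 had 13, 27, 5 and 7 against 0 in all 4. The calls of dkk1b, FZD8, CXCR4 and CNR2 were each lost in 6 of the 8 refits, and that of FZD8 also with the library set as a block (edgeR adjusted p 0.0857).

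Precursors of miR-430 were among the genes of smallest p. dre-mir-430b-17 (ENSDARG00000114956) had 170, 72, 55 and 90 reads in untreated embryos and 0 in all 4 actinomycin D libraries, at least 120.1-fold lower (edgeR adjusted p 0.000457). dre-mir-430b-6 (ENSDARG00000109380) had 42, 45, 20 and 27 reads against 0, at least 41.6-fold lower (edgeR adjusted p 0.000457). dre-mir-430a-13 (ENSDARG00000111403) had 91, 21, 47 and 54 reads against 0, at least 66.1-fold lower (edgeR adjusted p 0.00123). Of 55 annotated miR-430 identifiers 43 had no read in any of the 8 libraries and 5 were tested. All 5 had reads in every untreated library and in no actinomycin D library. Over all 11238 genes tested, 129 had no read in actinomycin D at 3 hpf and 2.13% had all actinomycin D libraries below all untreated ones. With 0 reads in actinomycin D these 5 could pass the filter only through other groups, so their separation was partly set by the filter. The summed level of the tested members was 47.5 to 122 CPM in untreated embryos. These precursors lie in 1 cluster of near-identical copies, 6, 8 and 15 genes apart in the RefSeq order of GRCz12tu, so how reads divide among copies is uncertain.

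Stress and signalling genes completed the group of smallest p. GADD45B, which encodes a growth arrest and DNA damage inducible protein, is carried by a pair of identifiers. ENSDARG00000013576 had 78, 116, 49 and 46 reads against 0, 1, 0 and 1, a 135-fold lower rate (36.9 to 1116; edgeR adjusted p 0.000667), and ENSDARG00000027744 had 25, 30, 11 and 21 against 0 in all 4, at least 27.0-fold lower (edgeR adjusted p 0.0151). FILIP1, which encodes a filamin-interacting protein, had 52, 55, 8 and 18 reads against 0 in all 4, at least 41.3-fold lower (edgeR adjusted p 0.00713). tagapa had 19, 24, 7 and 7 reads against 0, at least 17.7-fold lower (edgeR adjusted p 0.00134). In all 4 identifiers no actinomycin D library held more than 1 read. The immediate-early genes IER5, IER5L and ier2a, whose homologues respond rapidly to growth factors in mammals, were lower too, with at most 4 reads in any actinomycin D library and 17 to 177 in the untreated ones. Others called lower were MAPK12, a p38 kinase gene, inka1a, which encodes an inhibitor of a p21-activated kinase, tsc22d3, dleu7, si:zfos-1451h6.1 and si:ch73-141c7.1. With the library set as a block the calls of GADD45B ENSDARG00000027744 and FILIP1 were lost (edgeR adjusted p 0.0655 and 0.116), as were those of the immediate-early genes and of all 6 genes in the sentence before. The call of ENSDARG00000027744 was lost in 5 of the 8 refits, those of the immediate-early genes in 6, that of si:ch73-141c7.1 in 7 and those of MAPK12, inka1a, tsc22d3, dleu7 and si:zfos-1451h6.1 in 6.

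The little described genes si:rp71-45k5.2 and zgc:100951 had different remainders. si:rp71-45k5.2 (ENSDARG00000093129) had 88, 135, 55 and 48 reads in untreated and 6, 10, 15 and 12 in actinomycin D embryos. Its log2 fold change of -2.86 (SE 0.464; adjusted p by edgeR 0.00287) was the smallest of the 46, and 14.2% of its untreated level was left. zgc:100951 (ENSDARG00000111442) had 356, 445, 81 and 228 reads against 4, 0, 3 and 4 and fell by 6.54 (log2; SE 1.13, edgeR adjusted p 0.00888), a call lost in 3 of the 8 refits. Of the 6 lower genes without a symbol, ENSDARG00000077712 had the smallest p, with 67, 78, 25 and 44 reads against 1, 0, 0 and 1 (edgeR adjusted p 0.000242). ENSDARG00000109703 had 855, 805, 185 and 292 reads against 14, 13, 14 and 21.

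Summed over the 46 genes, the level was 2156, 2494, 559 and 884 CPM in untreated replicates 1 to 4 and 30.4, 26.5, 29.7 and 32.4 CPM in actinomycin D. These genes took 0.056 to 0.259% of all untreated reads and 0.00269 to 0.00325% of actinomycin D reads. The remainder in actinomycin D came mostly from a few genes: ENSDARG00000109703, si:rp71-45k5.2, CXCR4, klf2a and her11 held 65.7% of it. For 28 genes the remainder was under 1% of the untreated level, and for 5 it was over 5%.

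**Figure D2:**
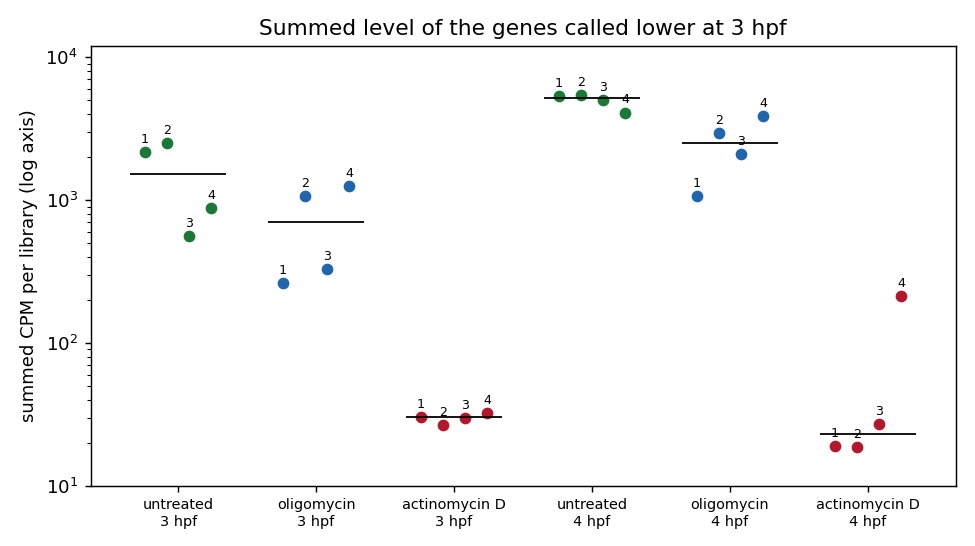
Summed CPM of the 46 genes in each library on a log axis, with points numbered by replicate and a line at the median of each group of 4. Untreated 3 hpf libraries span 559 to 2494 CPM, all actinomycin D 3 hpf libraries lie near 30.1 CPM, and 1 actinomycin D library at 4 hpf stands at 213 CPM.

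Untreated libraries spread more widely on this summed level than actinomycin D libraries. Replicate 3 was the lowest untreated library for 39 of the 46 genes, replicate 2 the highest for 34 and replicate 1 for 11. Titles carry library numbers in 2 runs, a first series of replicates 1 and 2 and a second of replicates 3 and 4, and what the numbers mark is not stated. Both libraries of the first series exceeded both of the second for 44 of the 46 genes (95.7%), against 19.4% of all genes tested. The summed level of the first series was thus 2156 and 2494 CPM and that of the second 559 and 884 CPM.

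The number of calls differed with the libraries in the fit. In the first series alone, with 2 libraries a side, 20 genes were called lower, 8 of them among the 46. In the second series alone 0 were called lower by edgeR's quasi-likelihood test, with 135 genes of either direction at an unadjusted p under 0.05. The title numbers also form 4 sets with 1 library of each group, and with this set as a replicate block 27 genes were called lower, 26 of them among the 46, and 3 higher. The 20 calls lost with the block had an edgeR adjusted p of 0.0655 to 0.185 there. Without untreated replicate 3 the count was 92 and all 46 were among them; without untreated replicate 1 or 2 it was 25 or 21, and without actinomycin D replicate 1, 2, 3 or 4 it was 20, 19, 20 or 17. Of the 48 called genes 18 kept their call in all 8 refits, which include irx7, vox, grhl3, mxtx2, klf17, lft1, lft2, GADD45B (ENSDARG00000013576) and the 3 miR-430 precursors. DESeq2's Wald test called 149 genes lower, with all 46 among them.

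**Figure D3:**
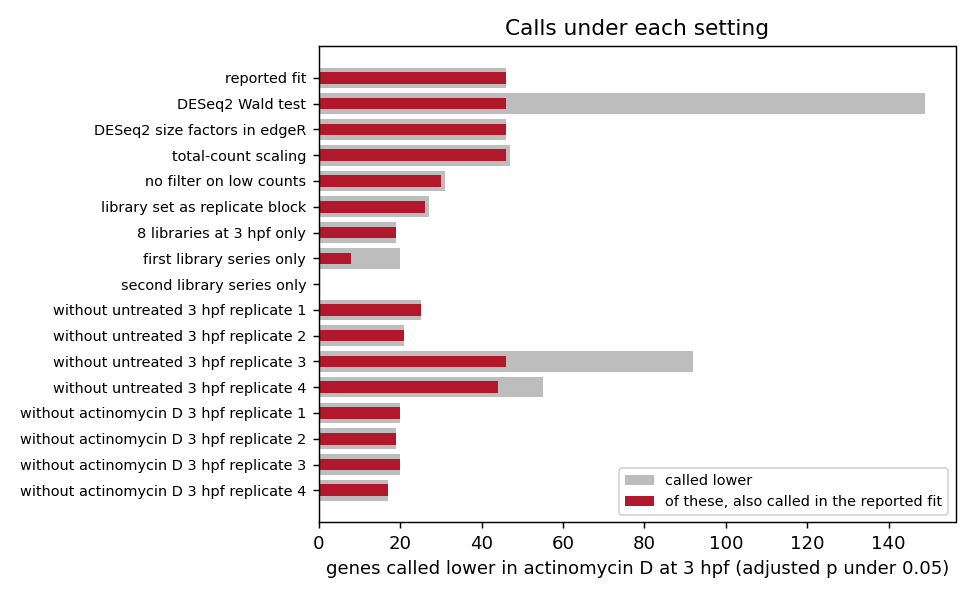
Number of genes called lower in actinomycin D at 3 hpf at an adjusted p under 0.05 in the reported fit and in each alternative (grey bars), and how many of these are among the 46 (red bars). Counts run from 0 in the second library series to 149 with DESeq2's Wald test, and a filter on 10 counts in every library, which tests none of the 46, is not drawn.

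Further genes had non-overlapping groups without passing the threshold. Of 194 genes whose groups did not overlap in the lower direction without a call, 133 (68.6%) were called lower at 4 hpf, against 7.12% of all genes. Genes with few reads in actinomycin D could pass the filter through untreated libraries at 4 hpf. The 68.6% was thus partly set by the filter, and 7.12% is not a like-for-like share. Without any filter, 38 identifiers had 0 reads in all actinomycin D libraries and at least 3 in every untreated library, and 0 identifiers showed the reverse. Of these, 14 were called, 23 were tested without a call and 1, lratb.2, was not tested. The following genes were chosen after their values were seen. aplnrb (ENSDARG00000036670), an Apelin receptor gene, had 117, 198, 17 and 79 reads against 0 in all 4 (at least 127.6-fold lower, edgeR adjusted p 0.0645). foxd5 (ENSDARG00000042485), a forkhead gene of early neural ectoderm, had 110, 169, 23 and 81 against 0 in all 4 (edgeR adjusted p 0.0726). The organizer homeobox gene noto had 33, 32, 6 and 36 reads and admp, which encodes a BMP-like ligand of the organizer, had 154, 136, 11 and 40, both against 0 in all 4; the edgeR adjusted p of noto was 0.185. In these genes untreated replicate 3 was again the lowest.

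Ventral repressor genes vox, vent and ved all had non-overlapping groups, against 2.13% of all genes tested. Only vox was called, by edgeR's quasi-likelihood test, against 0.409% of all genes called lower. vent (ENSDARG00000100483) had 9, 7, 3 and 9 reads against 0 in all 4 (edgeR adjusted p 0.0842) and ved (ENSDARG00000102389) 12, 32, 3 and 6 against 0, 1, 0 and 1 (edgeR adjusted p 0.242). At 4 hpf all 3 were called lower, against 7.12% of all genes. vent and ved had few reads at 3 hpf and could pass the filter through libraries at 4 hpf. The count at 4 hpf and the non-overlap at 3 hpf were thus both partly set by the filter. Among 7 genes of Nodal signalling 3 were called lower, against 0.409% of all genes (lft1, lft2 and mxtx2, which acts upstream of Nodal in the yolk syncytial layer), and 5 had non-overlapping groups, against 2.13%. The median log2 fold change was -3.89. It was -4.42 with genes at 0 reads at their bound and genes at 1 to 3 reads at their ratio of pooled rates. The Nodal ligand gene ndr1 (ENSDARG00000057096) had 38, 21, 16 and 26 reads against 8, 5, 13 and 12 (log2 fold change -1.32, SE 0.340, edgeR adjusted p 0.0967), and ndr2 (ENSDARG00000101279) had 5, 12, 2 and 4 against 0, 1, 0 and 0. gdf3, whose maternal product works with Nodal, was at 263 ± 48.7 and 273 ± 28.6 CPM (SD, n = 4) in untreated and actinomycin D embryos.

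Ectoderm and neural lists held 6 and 3 calls, and 25 of the 46 genes were on none of the lists. Among 12 tested factors of ectoderm and the enveloping layer 6 were called lower, 8 had non-overlapping groups and the median log2 fold change was -4.51, and -3.96 when genes at 0 reads take their bound. Among 8 neural and SoxB genes 3 were called, 5 did not overlap, with a median of -7.38 (-5.61 with the same bounds and ratios). The same values were 2 of 5 called and 3 not overlapping for dorsal organizer and Wnt genes. Over all genes tested 0.409% were called lower and 2.13% had all actinomycin D libraries below.

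Mesendoderm, BMP and FGF genes gave no call by edgeR's quasi-likelihood test, while 0.409% of all genes tested were called lower. At that share, no call among so few genes is not particular to these lists. Among 6 tested mesendoderm factors 2 had non-overlapping groups at 3 hpf and all 6 were called lower at 4 hpf, against 2.13% and 7.12% of all genes. For the BMP list these counts were 2 and 3 of 4, and for the FGF list 2 and 7 of 8. The filter could keep a gene through its reads at 4 hpf alone. sebox of the mesendoderm list had 0, 2, 0 and 0 untreated reads at 3 hpf and 26, 36, 27 and 24 at 4 hpf. szl of the BMP list had no read in either group at 3 hpf. The counts at 4 hpf were thus partly set by the filter, and 7.12% is not a like-for-like share. tbx16 (ENSDARG00000007329), a T-box factor of mesoderm, had 39, 138, 1 and 9 reads in untreated embryos at 3 hpf against 0, 0, 1 and 0 (edgeR adjusted p 0.727). In untreated embryos at 4 hpf it had 2771, 1767, 1302 and 1510 reads. ID1 (ENSDARG00000040764), a target of BMP signalling, had 106, 289, 53 and 77 reads against 18, 12, 25 and 46 at 3 hpf (edgeR adjusted p 0.214). DUSP6 (ENSDARG00000070914), a feedback inhibitor of FGF signalling, had 37, 67, 7 and 31 against 0, 1, 0 and 0 (edgeR adjusted p 0.0694).

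Maternal transcripts on the lists read here were not called in either direction. Of 13 tested oocyte RNAs 0 were called and 0 had non-overlapping groups in either direction. Their median log2 fold change was 0.02. Their summed level was 5735 to 6697 CPM in untreated and 6106 to 6745 CPM in actinomycin D libraries. Among 10 germ plasm and germ cell genes 0 were called, with a median of 0.04. Over all genes 0.409% were called lower and 0.0178% higher, while 2.13% had all actinomycin D libraries below and 0.552% above. At these shares, 0 of 13 and 0 of 10 are not particular to maternal RNA. buc, which organizes the germ plasm, was at 1917 ± 82.6 CPM in untreated and 2020 ± 92.8 CPM in actinomycin D embryos (SD, n = 4). The maternal activators of the zygotic genome, nanog, pou5f3 and sox19b, were not called: nanog stood at 926 ± 39.2 against 814 ± 43.9 CPM, pou5f3 at 457 ± 25.7 against 408 ± 21.5 CPM and sox19b at 784 ± 46.5 against 773 ± 48.6 CPM (SD, n = 4). Groups did not overlap for 2 of these 3, against 2.13% of all genes. Markers of differentiated or adult tissue, 19 identifiers, never exceeded 5 counts, 10 of them had none in all 8 libraries, and no member passed the filter. The 19 include krt5, which is also a marker of the enveloping layer.

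Damage response genes were examined because actinomycin D binds DNA. It also blocks transcription, so a response through newly made RNA could not be seen here. The counts below therefore do not show whether damage occurred. Among 12 tested genes of the damage response list 0 were called in either direction by edgeR, against 0.409% of all genes lower and 0.0178% higher. At these shares, 0 of 12 is not particular to this list. Groups did not overlap in the lower direction for 2 of the 12, against 2.13% of all genes, and the median log2 fold change was -0.14. GADD45B, whose identifiers were both called lower, is not on this list. mdm2, which encodes a ubiquitin ligase, was at 97.6 ± 17.9 CPM in untreated and 98.0 ± 17.7 CPM in actinomycin D embryos (SD, n = 4). cdkn1a (ENSDARG00000076554), which encodes an inhibitor of the cell cycle, had 4, 19, 4 and 7 reads against 1, 0, 0 and 0 (edgeR adjusted p 0.0772). At 4 hpf 6 of the 12 were called lower and 0 higher, against 7.12% and 4.4% of all genes. Genes low at 3 hpf could pass the filter through libraries at 4 hpf. PHLDA3, for example, had 6, 7, 9 and 7 untreated reads at 3 hpf and 84, 25, 29 and 31 at 4 hpf.

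The same contrast was then read in the libraries at 4 hpf. These libraries entered the comparison at 3 hpf through the shared estimate of the spread, the normalization and the filter on low counts. With the 8 libraries at 3 hpf alone, 30 of the 46 genes were tested. All 46 genes were called lower there by the same edgeR test, against 7.12% of all genes tested. Genes with almost no reads in actinomycin D could pass the filter only through other groups, untreated embryos at 4 hpf among them. The count of 46 was thus partly set by the filter, and 7.12% is not a like-for-like share. Both higher genes were called higher again, against 4.4% of all genes. These 46 genes were 5.75% of the 800 genes called lower at 4 hpf. Of the 800, 650 (81.2%) had a log2 fold change below 0 at 3 hpf, against 51.1% of all genes, and 178 (22.2%) had non-overlapping groups at 3 hpf, against 2.13%. Genes of the 800 could likewise pass the filter through untreated libraries at 4 hpf. Their shares at 3 hpf were thus partly set by the filter too, and the shares of all genes are not like-for-like. Of the 494 genes called higher at 4 hpf 58.7% had a value above 0 at 3 hpf, against 48.9% of all genes, with a median of 0.02.

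Replicate 4 of actinomycin D at 4 hpf held reads of 44 of the 46 genes and a summed level of 213 CPM, against 18.8 to 26.9 CPM in the other 3 libraries. All 46 were also called lower at 4 hpf without it. The effect at 4 hpf minus that at 3 hpf was called for 0 of the 46 genes by edgeR, against 1.73% of all genes, and 0 had an unadjusted p under 0.05 (6 with DESeq2, of which 0 were called). For genes with almost no reads in actinomycin D this difference was poorly estimated. It was 3.13 (SE 2.18) for irx7. For dre-mir-430b-6, with 0 reads in every actinomycin D library at both times, it was 1.05 (SE 3270). That value only mirrors its untreated log2 change of -1.05 from 3 to 4 hpf and holds no estimate of a difference. The 0 calls therefore do not show equal effects at both times.

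Levels in untreated embryos rose further between the times for most of these genes. This comparison shares the untreated 3 hpf libraries with the one above and is given beside it. By edgeR's quasi-likelihood test 27 of the 46 genes rose from 3 to 4 hpf, against 12.8% of all genes, and 0 fell, against 14.6%. Only 30 of the 46 were tested with the 8 libraries at 3 hpf alone, and others could pass the filter through untreated libraries at 4 hpf. The counts of 27 and 0 were thus partly set by the filter, and 12.8% and 14.6% are not like-for-like shares. The median gene stood at 30.8% of its 4 hpf level at 3 hpf, and 6 of the 46 stood at 50% or more. MAPK12 was lowest, at 10.9% of its 4 hpf level. dleu7 stood at 11.5%, sox19a at 13.6% and inka1a at 13.7%, and these were among the genes that rose. irx7 stood at 84.4%, with 70.3 ± 37.0 CPM at 3 hpf and 83.3 ± 25.4 CPM at 4 hpf (SD, n = 4), and was not called.

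The precursors of miR-430 had higher means at 3 than at 4 hpf. The mean untreated level was 35.6 CPM at 3 hpf and 27.4 CPM at 4 hpf for dre-mir-430b-17, 12.4 and 5.82 CPM for dre-mir-430b-6, and 19.4 and 12.1 CPM for dre-mir-430a-13. None of these changes was called (edgeR adjusted p 0.637, 0.104 and 0.424). The other 43 genes all had a higher mean at 4 hpf, a count also partly set by the filter.

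**Figure D4:**
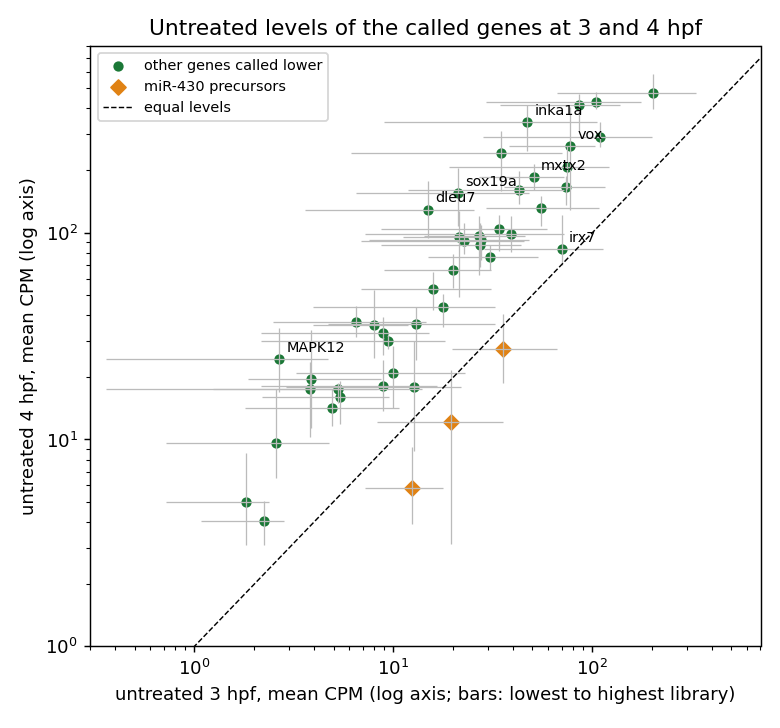
Mean CPM of the 46 genes in untreated embryos at 3 hpf (horizontal, log axis) and 4 hpf (vertical, log axis), with bars from the lowest to the highest of 4 libraries and a dashed line at equal levels. The 3 miR-430 precursors (orange) lie below the line and the other 43 genes above it.

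Levels in oligomycin embryos at 3 hpf are given without a test. The summed level of the 46 genes was 263, 1074, 332 and 1258 CPM in replicates 1 to 4. For vox the mean was 50.9 ± 31.5 CPM (SD, n = 4), against 77.6 ± 30.8 CPM in untreated embryos.

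The genes called higher in actinomycin D at 3 hpf were ENSDARG00000083480, which has no symbol, and MT-ND6 (ENSDARG00000063922), a mitochondrially encoded subunit of respiratory complex I. ENSDARG00000083480 had 2, 0, 1 and 2 reads in untreated and 70, 76, 50 and 62 in actinomycin D embryos. Its level was 0.44 ± 0.34 against 26.2 ± 8.78 CPM (SD, n = 4; log2 fold change 5.71, SE 0.533, edgeR adjusted p 9.51e-07). At 4 hpf it had 0, 0, 2 and 0 reads in untreated and 98, 77, 108 and 70 in actinomycin D libraries, and in oligomycin embryos no library at 3 hpf held more than 1. Reads were thus high in all 8 actinomycin D libraries and near 0 in the other groups, and the call was kept in all 8 refits without 1 library.

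MT-ND6 had 36, 57, 53 and 68 reads in untreated and 104, 149, 111 and 170 in actinomycin D embryos, or 19.2 ± 3.74 against 52.2 ± 10.3 CPM (SD, n = 4; log2 fold change 1.44, SE 0.293, edgeR adjusted p 0.0199). The groups did not overlap; over all genes tested 0.552% had all actinomycin D libraries above. Its call was lost in 5 of the 8 refits without 1 library and in each library series alone. The other 12 mitochondrially encoded genes were not called, and the 13 genes took 0.0788 to 0.105% of reads in untreated and 0.106 to 0.115% in actinomycin D libraries. Of the 13, MT-ND6 included, 4 had all actinomycin D libraries above all untreated ones, against 0.552% of all genes. All were below for 1, against 2.13%, and the median log2 fold change of the 13 was 0.26. MT-ND6 lies on the opposite mitochondrial strand to its neighbours, and whether reads were counted by strand is not given in the sources used here, so its reads cannot be told apart from those of overlapping transcripts.

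**Figure D5:**
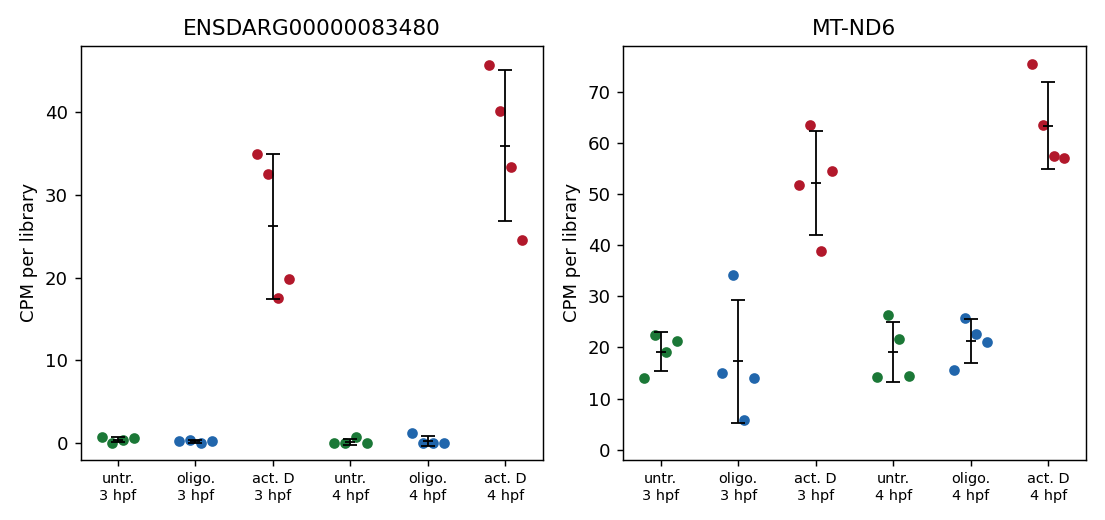
CPM per library of the 2 genes called higher in actinomycin D at 3 hpf, in all 6 groups (untr., untreated; oligo., oligomycin; act. D, actinomycin D), with the mean and SD of 4 libraries in black. Both stand higher in actinomycin D than in untreated embryos at both times, at 26.2 against 0.44 CPM for ENSDARG00000083480 and 52.2 against 19.2 CPM for MT-ND6 at 3 hpf.

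Depth was similar in both groups, with 2438707 to 3232574 counts per untreated and 1966154 to 3103912 counts per actinomycin D library. Scaling by DESeq2 size factors or by total counts left 46 and 47 genes called lower, all 46 among them.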

How the data were processed

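RNA of whole zebrafish embryos was extracted and sequenced as 3′ end libraries with the Lexogen QuantSeq kit, per the labels' protocols. Raw read counts per Ensembl gene identifier were deposited, per the file headers. The submitters' processing notes name Bowtie2 2.3.4.1, featureCounts, Subread 1.6.2 and the build GRCz11; settings, strand use and molecular identifiers are not given in the sources used here. Symbols came from a table that matched 29201 of 32520 identifiers and often spells them in capitals; RefSeq GRCz12tu served for gene order alone. Sequences were not used here.

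Counts of all 24 libraries were fitted with edgeR 4.0.16 under R 4.3.3, with TMM factors, a mean per group and the robust quasi-likelihood test; filterByExpr kept 11238 genes. All groups thus share 1 estimate of the spread. An SE given with a log2 value is the size of that value divided by the square root of the test's F statistic. It has no clear meaning where a group has almost no reads. DESeq2 1.42.0 was an alternative. The scripts were tested on simulated counts. CPM use the TMM-scaled size over the genes kept. Values per library are given for the 20 lower genes with a symbol and the smallest p, both higher genes and up to 4 genes per list of highest untreated CPM; other genes with values were chosen after these were seen. Gene lists and members were chosen with earlier results of these data known, roles were assigned after the calls, and the small RNA name pattern was corrected after the values were seen. That list gave 0 calls among 13 tested genes. In the list of other early zygotic genes 0 of 11 tested were called. With 0.409% of all genes called lower, 0 calls is not particular to either list. Of the 11 early zygotic genes 6 had all actinomycin D libraries below, against 2.13% of all genes. For that list 11 of 17 names matched a symbol, and the GADD45B identifiers are not among them.

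Deviations from the group means correlated in each of the 4 library sets formed by the title numbers (0.236, 0.552, 0.425 and 0.515 between untreated and actinomycin D at 3 hpf), so the set was read as pairing the libraries. The reported fit left this pairing out, and the fit with the set as a block is given as an alternative. No replicates were duplicates: the chi-square per gene between libraries of a group was at least 4.03, above counting noise. PCR copies of a molecule count as separate reads, so intervals and floors cover counting error only.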

Additional observations from a re-analysis of the deposited data

Results flagged for a closer look

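A library stood apart from the other 3 of its group in 6 of 142 groups of values checked with Dixon's criterion; chance alone gives about 1 in 20. The summed level of the genes called lower was 213 CPM in actinomycin D 4 hpf replicate 4, the highest of its group. In actinomycin D at 3 hpf, gdf3 was highest in replicate 2 at 316 CPM, mixl1 highest in replicate 2 at 7.69 CPM and tdgf1 lowest in replicate 1 at 109 CPM. In untreated embryos at 3 hpf, chrd was highest in replicate 2 at 8.70 CPM and cdkn1a in replicate 2 at 7.51 CPM.

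The effect of actinomycin D differed between 4 and 3 hpf for 4 of 87 genes examined, against 1.73% of all genes tested, by the interaction term of edgeR's quasi-likelihood test. The 87 were the genes given values per library by rule and others chosen for the text. Other list members were called by this term outside the 87, such as ovol1a (-2.73, adjusted p 8.77e-05) and PRKCD ENSDARG00000070651 (-3.22, adjusted p 0.000598). The log2 effect at 4 hpf minus that at 3 hpf was -2.85 for NOCT (adjusted p 9.12e-06), -1.74 for BTG1 (adjusted p 0.0007), -1.24 for tdgf1 (adjusted p 0.00633) and 1.02 for buc (adjusted p 0.00407). NOCT encodes nocturnin, BTG1 an antiproliferative factor and tdgf1 the Nodal co-receptor. None of the 4 was called at 3 hpf.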

How the results depend on the processing

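Against 46 lower and 2 higher genes, a minimum of 10 counts in every library gave 0 and 0 (64 genes at an unadjusted p under 0.05), since none of the 46 passed that filter. The 8 libraries at 3 hpf alone gave 19 lower; 30 of the 46 were tested there. The library set as a replicate block gave 27 lower and 3 higher and kept 28 of the 48 calls. The first series alone gave 20 and 1, the second 0 and 1, and DESeq2's Wald test 149 lower; the cause of these differences was not tested. Without 1 library at 3 hpf, 17 to 92 genes were lower and 1 to 2 higher. No filter gave 31 lower, and leaving out actinomycin D 4 hpf replicate 4, an alternative chosen after seeing the data, gave 41. The 46 of 46 called lower at 4 hpf and the 0 called for a difference between the times were also found in every alternative run for them, the block included. That 0 is limited by the poor estimate of the difference for genes with almost no reads in actinomycin D. The 46 of 46 at 4 hpf was partly set by the filter, which used the libraries of both times. Depth limits the folds of genes with few or no reads in actinomycin D.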
